A study of Mus musculus with 6 samples.

Results

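The CXC chemokines and fractalkine examined here were 10 genes, Cxcl1, Cxcl2, Cxcl5, Cxcl9, Cxcl10, Cxcl11, Cxcl12, Cxcl14, Cxcl16 and Cx3cl1, out of 36163 genes named on the arrays. They were taken by gene name from the annotation in the array files, which gave 14 of 55681 probes. A gene was tested where both arrays of some group read it well above background, which 7 of the 10 genes met, among 24648 genes in all. Cxcl2, Cxcl5 and Cxcl14 were measured on every array but did not pass that filter.

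The cells were N18-Fms (N18-CFMS in the labels), 1 clone of the murine C2H prostate tumor line. C2H came from a tumor of the TRAMP mouse, in which a viral oncogene drives prostate cancer, and N18 carries a luciferase vector and neomycin resistance. All groups, the controls included, had been given murine c-fms, the gene of the CSF-1 receptor, by retrovirus and sorted for the receptor, and all were grown with 10% fetal bovine serum and dihydrotestosterone. Control cells received no added CSF-1, and the others received recombinant mouse CSF-1 at 100 ng/mL for 24 h or 48 h, with 2 arrays in each of the 3 groups. The labels give these times, whereas the methods text gives shorter ones for the same experiment, so the labelled times are used. Per the methods text the RNA came from 2 independent experiments, but which arrays share an experiment is not said.

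Chemokines are small secreted proteins that direct the movement of leukocytes through receptors coupled to G proteins. CXC chemokines with the ELR motif before their first cysteines (Cxcl1, Cxcl2, Cxcl5) act on Cxcr2 and attract neutrophils, whereas Cxcl9, Cxcl10 and Cxcl11 are induced by interferon and act on Cxcr3 of activated T and NK cells. Cxcl12 and Cxcl14 are made constitutively in many tissues, and Cxcl16 and fractalkine (Cx3cl1) are anchored in the membrane on a stalk until proteases release them. In prostate tumors, Cxcl12 is known mainly as a product of stromal cells that acts on Cxcr4 of tumor cells.

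The values are log2 spot signals from which the 75th percentile of each array was subtracted, so that 0 is the 75th percentile and a step of 1 is a 2-fold change. Well above background is the flag of the scanner software for a spot whose signal exceeds the local background. A gene was called when limma gave an adjusted p under 0.05 over all genes tested and the change was at least 2-fold. Between 58.7% and 72% of the spots on each array were well above background and 0 were saturated. The second slide held only replicate 1 of the 24 h group, and the other 5 arrays shared the first slide. Csf1r was well above background on all 6 arrays, between 4.88 and 5.34, and was called in 0 of 3 comparisons. The line is described as epithelial. Of its markers, Krt8 and Krt5 were well above background on all 6 arrays, Epcam on 1 array and Cdh1 on 0, while all 5 fibroblast markers, among them Vim and Col1a1, were well above background on all 6 arrays.

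RefSeq promoters of build GRCm38.p6 were at hand for 7 of the 10 genes and not for Cxcl5, Cxcl11 or Cxcl16. The 250 bases before the transcription start are shown for the 3 genes that were called and for the closest relatives of the induced ones, Cxcl2 and Cxcl9. Capitals mark matches on either strand to an NF-kB motif (GGGNNTTTC), an interferon-stimulated response element (GAAANNGAA), a gamma-activated sequence (TTCNNNGAA) or an AP-1 motif (TGANTCA), each printed 5′ to 3′ on the strand of the gene.
Cxcl1, chr5:90890995-90891244, plus strand: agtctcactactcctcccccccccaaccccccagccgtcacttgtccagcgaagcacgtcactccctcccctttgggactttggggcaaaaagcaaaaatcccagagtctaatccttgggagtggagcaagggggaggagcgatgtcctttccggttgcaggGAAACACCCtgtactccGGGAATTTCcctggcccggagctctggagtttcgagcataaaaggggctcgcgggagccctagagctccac
Cxcl2, chr5:90903649-90903898, plus strand: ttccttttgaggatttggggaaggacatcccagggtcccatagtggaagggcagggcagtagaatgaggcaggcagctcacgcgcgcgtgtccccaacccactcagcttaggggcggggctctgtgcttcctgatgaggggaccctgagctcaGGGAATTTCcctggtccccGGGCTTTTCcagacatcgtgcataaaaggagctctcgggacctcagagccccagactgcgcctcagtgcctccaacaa
Cxcl9, chr5:92328080-92328329, minus strand: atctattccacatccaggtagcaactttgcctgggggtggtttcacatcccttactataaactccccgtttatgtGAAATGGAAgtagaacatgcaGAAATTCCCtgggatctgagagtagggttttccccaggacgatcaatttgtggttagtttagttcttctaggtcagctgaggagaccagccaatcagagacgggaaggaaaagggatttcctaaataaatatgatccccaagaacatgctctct
Cxcl10, chr5:92348890-92349139, minus strand: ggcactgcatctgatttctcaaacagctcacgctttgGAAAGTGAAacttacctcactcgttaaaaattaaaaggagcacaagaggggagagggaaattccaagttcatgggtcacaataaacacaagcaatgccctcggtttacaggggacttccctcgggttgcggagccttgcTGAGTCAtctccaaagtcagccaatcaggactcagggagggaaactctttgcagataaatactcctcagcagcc
Cxcl12, chr6:117168285-117168534, plus strand: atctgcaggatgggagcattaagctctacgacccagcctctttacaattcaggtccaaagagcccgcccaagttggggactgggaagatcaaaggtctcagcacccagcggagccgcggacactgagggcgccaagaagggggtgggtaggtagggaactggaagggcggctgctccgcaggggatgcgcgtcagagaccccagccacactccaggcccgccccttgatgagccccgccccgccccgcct

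The windows searched held 300 bases, 250 before the start and 50 after it. Cxcl1 and Cxcl2 each had 2 NF-kB matches and no other match, and the sequence GGGAATTTC occurred in both, at -71 in Cxcl1 and at -97 in Cxcl2. Cxcl10 had the interferon-stimulated response element GAAAGTGAA at -213 and an AP-1 match at -74. Cxcl9 had the element as GAAATGGAA at -175, an NF-kB match on the opposite strand at -154 and an AP-1 match just after the start. Cxcl14 had a response element at -172 and a gamma-activated sequence at -191, and Cxcl12 and Cx3cl1 had 0 matches. No match overlapped another. Of the 32851 promoters in the RefSeq table, 4.36% held the NF-kB motif, 8.56% the response element, 8.3% the gamma-activated sequence and 7.81% the AP-1 motif. These are matches of letters, and binding was not measured. Only the patterns given were searched, so a promoter without a match may still hold a site spelled otherwise. The stretches gggaaattcc and ggggacttcc of Cxcl10, for example, differ from the NF-kB pattern used and were left unmarked.

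After 24 h of CSF-1, Cxcl10 and Cxcl1 rose and Cxcl12 fell, and the same 3 genes were called in the same directions at 48 h. Cxcl10 rose most, by 46.7-fold at 24 h and 93.5-fold at 48 h, Cxcl1 rose by more than 4-fold at both times, and Cxcl12 was more than 6-fold lower at both times. Of the 7 tested genes, 2 were called higher and 1 lower at 24 h, against 4.55% of all genes tested that were called higher and 1.62% called lower. At 48 h the counts were also 2 and 1, against 3.95% and 1.46%. The median change of the 7 tested genes was 0.43 at 24 h and 0.81 at 48 h on the log2 scale, beside 0.04 and -0.04 over all genes tested. Both comparisons use the same Control arrays, so they are not independent of each other.

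**Figure D1:**
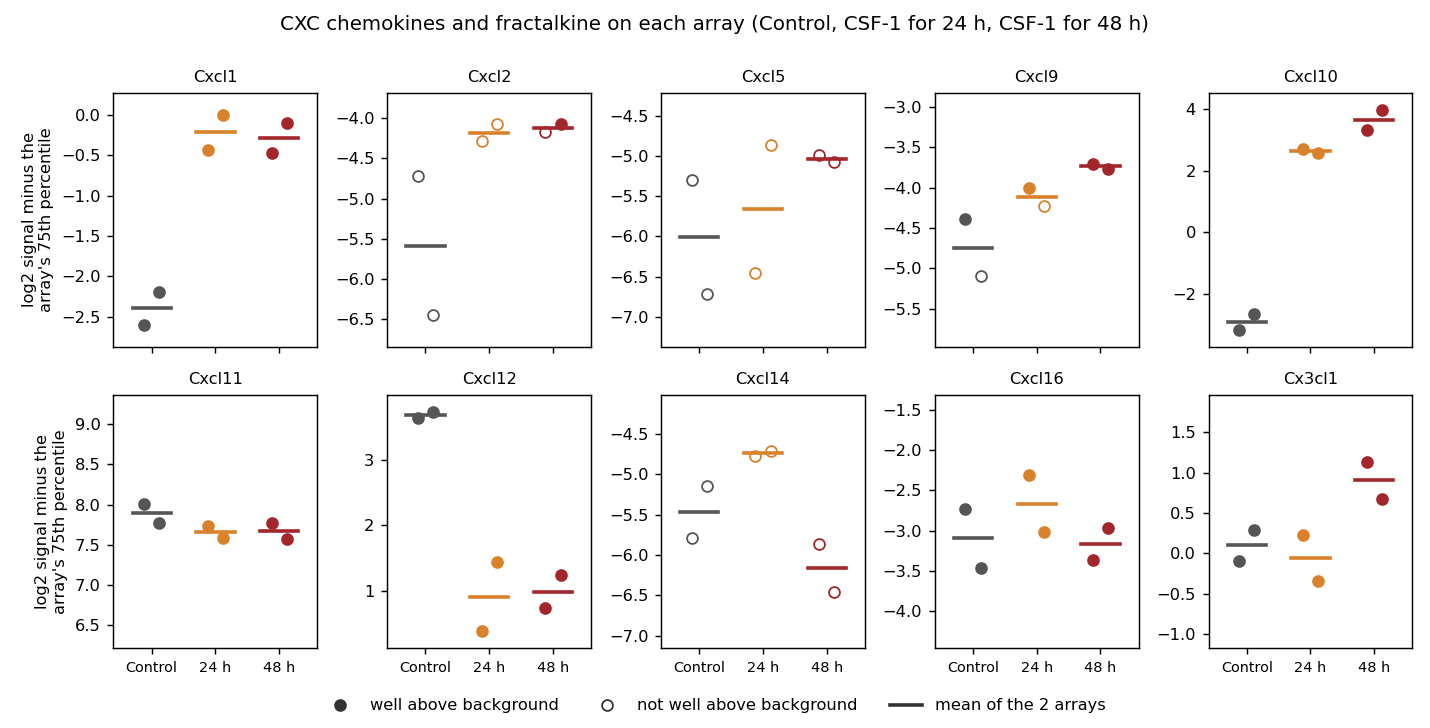
Log2 signal minus the array's 75th percentile (vertical axis, scaled separately in each panel) of the probe used for each of the 10 genes on the 6 arrays, with a bar at the mean of each pair. Filled points were well above background and open points were not. All 4 stimulated arrays lie above both Control arrays for Cxcl1 and Cxcl10 and below both for Cxcl12. They also lie above both for the dim genes Cxcl9, which was not called, and Cxcl2, which was not tested.

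The neutrophil chemokines differed in whether they could be measured. Cxcl1, also called KC, was read by 1 probe on chromosome 5 (mm9, 91321845 to 91321904, plus strand). Its values were -2.60 and -2.19 on the Control arrays, -0.43 and 0.00 at 24 h, and -0.47 and -0.10 at 48 h, well above background on all 6 arrays. The groups of stimulated arrays overlapped each other and lay clear of the Control arrays. Cxcl1 rose by 2.18 (log2, SE 0.23, 95% confidence interval 1.59 to 2.77), or 4.53-fold, at 24 h with an adjusted p of 0.00736. At 48 h it rose by 2.11, or 4.31-fold, with an adjusted p of 0.00771. The difference between 48 h and 24 h was -0.07, with an interval from -0.66 to 0.52.

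Cxcl2, also called MIP-2 and a close relative of Cxcl1, was near the limit of the arrays. It read -4.72 and -6.45 on the Control arrays, -4.29 and -4.08 at 24 h, and -4.17 and -4.08 at 48 h. Only replicate 2 of the 48 h group was well above background. The lowest signals that were well above background lay between -5.26 and -4.26 on the 6 arrays, so most of these readings carry only a bound. Set against those lowest signals in the Control arrays, the mean 48 h reading of Cxcl2 was 1.76-fold higher, with no test. That mean includes replicate 1, which was not well above background, so it is not a firm lower bound. Cxcl5, which attracts neutrophils in epithelial inflammation, was well above background on 0 of 6 arrays, with readings from -6.72 to -4.87 in which the 24 h group overlapped both other groups.

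The interferon-inducible ligands of Cxcr3 lie side by side on chromosome 5, and of the 3 only Cxcl10 was called. Cxcl10, also called IP-10, was read by the probe A_55_P2016462 (mm9, 92775781 to 92775840, minus strand) at -3.16 and -2.64 in the Control arrays, 2.70 and 2.59 at 24 h, and 3.31 and 3.97 at 48 h. The 3 groups did not overlap, and the gap between Control and stimulated arrays was far wider than that between replicates. Cxcl10 rose by 5.55 (SE 0.28, interval 4.85 to 6.24) at 24 h with an adjusted p of 0.00145, and by 6.55 (interval 5.85 to 7.24) at 48 h with an adjusted p of 0.000927. Background correction with normexp gave smaller changes, 4.5 and 5.47, both still called. The step from 24 h to 48 h was 1.0 (interval 0.31 to 1.70), a 2-fold change with an unadjusted p of 0.0133 in limma and an adjusted p of 0.236, and it was not called.

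The 2 probes of Cxcl10 disagreed. The dimmer probe, A_55_P2016459 (mm9, 92776616 to 92776675), is assigned to the cDNA AK156907 and was well above background only on replicate 1 at 24 h and replicate 2 at 48 h. It read -5.95 and -5.05 in the Control arrays, -4.34 and -4.84 at 24 h, and -5.21 and -4.75 at 48 h. It did not pass the filter. With the mean of both probes in place of the brighter probe, the changes of Cxcl10 were 3.23 and 3.53 and were still called.

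Cxcl9, also called Mig, was dim. The probe A_55_P1977038 read -4.39 and -5.10 in the Control arrays, -4.0 and -4.23 at 24 h, and -3.70 and -3.77 at 48 h. It was well above background on 1 of 2 arrays in the Control and 24 h groups and on both at 48 h, and the stimulated arrays all read higher than the Control arrays. The difference from Control was 0.63 (interval 0.00 to 1.26, adjusted p = 0.161) at 24 h and 1.01 (interval 0.38 to 1.64), or 2.02-fold, at 48 h. The adjusted p at 48 h was 0.0558, so Cxcl9 was not called. It had passed the filter only through the 48 h arrays. Without Control replicate 1 it was called, at 1.37 with an adjusted p of 0.0365, but the only Control reading left was then one that was not well above background. The other probe of Cxcl9 was well above background only on replicate 2 at 48 h.

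Cxcl11, also called I-TAC, is listed by RefSeq as a transcribed pseudogene in this build and was well above background on every array by both of its probes. The probe A_55_P2160387 read 8.01 and 7.77 in the Control arrays, 7.74 and 7.59 at 24 h, and 7.77 and 7.57 at 48 h. The groups lay close together and those of stimulated arrays overlapped. Neither difference from Control was called, with -0.23 (interval -0.59 to 0.14, adjusted p = 0.354) at 24 h and -0.22 (interval -0.59 to 0.14, adjusted p = 0.368) at 48 h. The other probe, A_55_P2044413, lies beside it in the same transcript and read 2.72 and 2.69 in the Control arrays, 2.52 and 2.35 at 24 h, and 2.55 and 2.48 at 48 h. Its differences, -0.27 (interval -0.57 to 0.03) and -0.19 (interval -0.49 to 0.11), were not called either. The probes differed widely in signal although they lie next to each other, and whether one of them also reads another transcript was not examined here, so the values are those of the probes and may not be those of Cxcl11 alone.

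**Figure D2:**
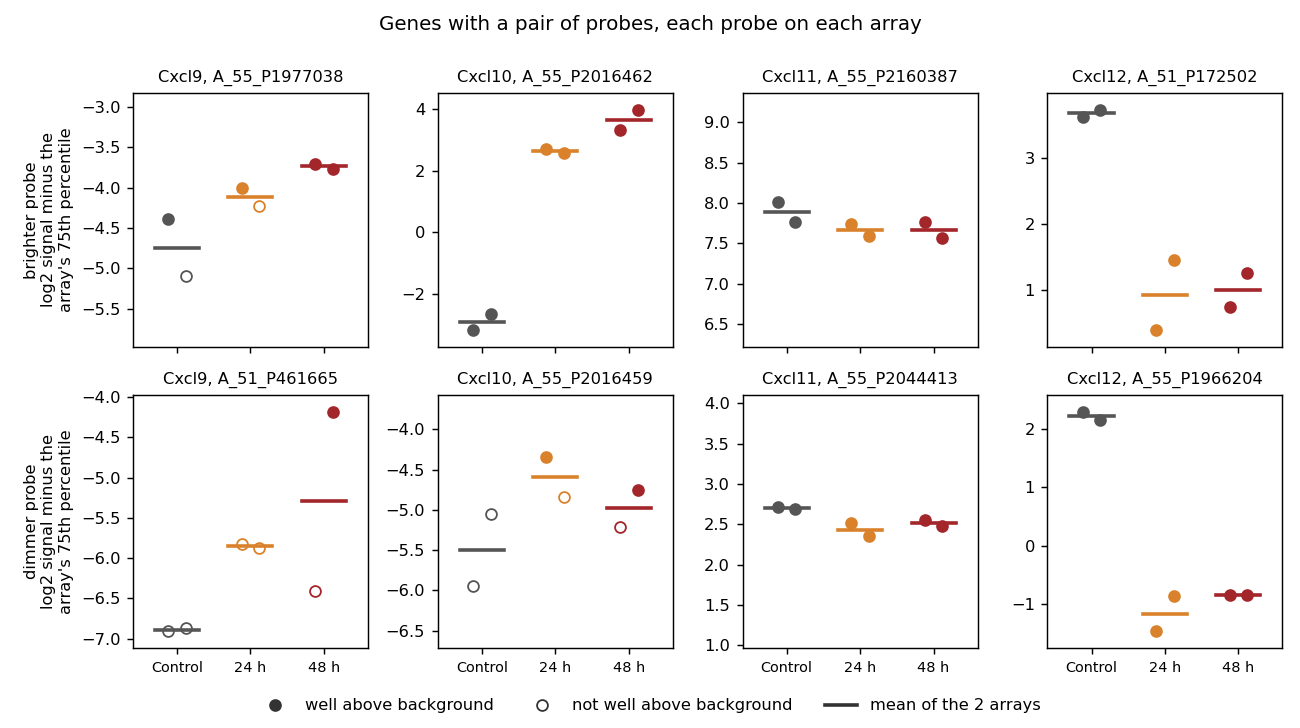
The 4 genes read by a pair of probes, with the brighter probe above and the dimmer probe below; the vertical axes give log2 signal minus the array's 75th percentile and are scaled separately. Filled points were well above background. The probes of Cxcl12 and of Cxcl11 moved alike, whereas only the brighter probe of Cxcl10 left the level near background.

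Cxcl12, also called SDF-1, was the member that fell. The probe A_51_P172502 (mm9, chromosome 6, 117131227 to 117131286, plus strand), assigned to the transcript NM_001012477, read 3.63 and 3.73 in the Control arrays, 0.39 and 1.45 at 24 h, and 0.74 and 1.25 at 48 h. The Control replicates lay within 0.10 of each other, and all stimulated arrays were lower by more than the spread between any replicates. Cxcl12 fell by 2.76 (SE 0.37, interval -3.70 to -1.82), or 6.78-fold, at 24 h with an adjusted p of 0.0123. At 48 h it fell by 2.69, or 6.45-fold, with an adjusted p of 0.0141. The 48 h and 24 h groups overlapped, with a difference of 0.07 (interval -0.87 to 1.01).

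A second probe, A_55_P1966204 (mm9, 117125026 to 117125085), assigned to the transcript NM_021704, read 2.30 and 2.15 in the Control arrays, -1.47 and -0.86 at 24 h, and -0.85 and -0.84 at 48 h. With every probe tested on its own, it fell by 3.39, or 10.5-fold, at 24 h with an adjusted p of 0.00286. At 48 h it fell by 3.07, or 8.39-fold, with an adjusted p of 0.00275. Both probes were therefore called lower at both times. With either Control array left out, the change on the first probe was between -2.81 and -2.64, but the adjusted p was 0.0628 and 0.0754 at 24 h and 0.0782 and 0.0777 at 48 h, so the call was lost. The 48 h call was also lost without replicate 1 of that group, at -2.43 with an adjusted p of 0.063, and with no filter on dim probes, at 0.0562. A left-out array leaves 1 array in its group, which is then assumed to vary like the others.

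Other genes of connective tissue cells moved at the same times. Of 5 fibroblast markers, 2 were called lower and 1 higher at 24 h, and 3 were called lower at 48 h. Over all genes tested, 1.62% were called lower and 4.55% higher at 24 h, and 1.46% lower at 48 h. Col1a2 and Col1a1, which encode the chains of type I collagen, changed by -1.44 and -0.88 at 24 h, where only Col1a2 was called, and both fell at 48 h, by 1.23 and 1.19. Dpt fell by 1.84 at both times, Pdgfra rose by 1.33 at 24 h, and Vim differed by -0.16 and -0.27, which were not called. The summed relative signal of the 5 genes was 639 and 646 in the Control arrays, 425 and 431 at 24 h, and 404 and 411 at 48 h. Their part in the fall of Cxcl12 was not tested, and in RNA from whole cultures fewer cells of a type and less RNA per cell cannot be told apart.

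Cxcl14, also called BRAK, was well above background on 0 of 6 arrays, with readings from -6.46 to -4.71, and was not tested. The members with a membrane anchor were measured on all 6 arrays and were not called. Cxcl16, the ligand of Cxcr6, read -2.73 and -3.46 in the Control arrays, -2.31 and -3.02 at 24 h, and -3.36 and -2.97 at 48 h. The groups overlapped. The differences from Control were 0.43 (interval -0.44 to 1.31) and -0.07 (interval -0.94 to 0.80), with adjusted p of 0.46 and 0.922, so a 2-fold rise at 24 h lies within the interval.

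Fractalkine, the ligand of Cx3cr1, read -0.09 and 0.29 in the Control arrays, 0.23 and -0.34 at 24 h, and 1.13 and 0.68 at 48 h. The 24 h and Control arrays overlapped, and both 48 h arrays read higher than the other 4. At 24 h the difference was -0.16 (interval -0.83 to 0.52, adjusted p = 0.748). At 48 h it was 0.81 (interval 0.13 to 1.48), or 1.75-fold, with an adjusted p of 0.113, and between 48 h and 24 h it was 0.96 (interval 0.29 to 1.64), with an adjusted p of 0.24.

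From 24 h to 48 h, 0 of the 7 tested genes were called, as were 0% of all genes tested with limma. At an unadjusted p under 0.05 with at least a 2-fold change, 1 member was called, Cxcl10, beside 2.27% of all genes tested. The median difference of the 7 genes was 0.07, beside -0.08 over all genes. The methods' t-test called 251 genes between the times at an unadjusted p with at least a 2-fold change, and after adjustment it called 0 genes in each of the 3 comparisons.

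**Figure D3:**
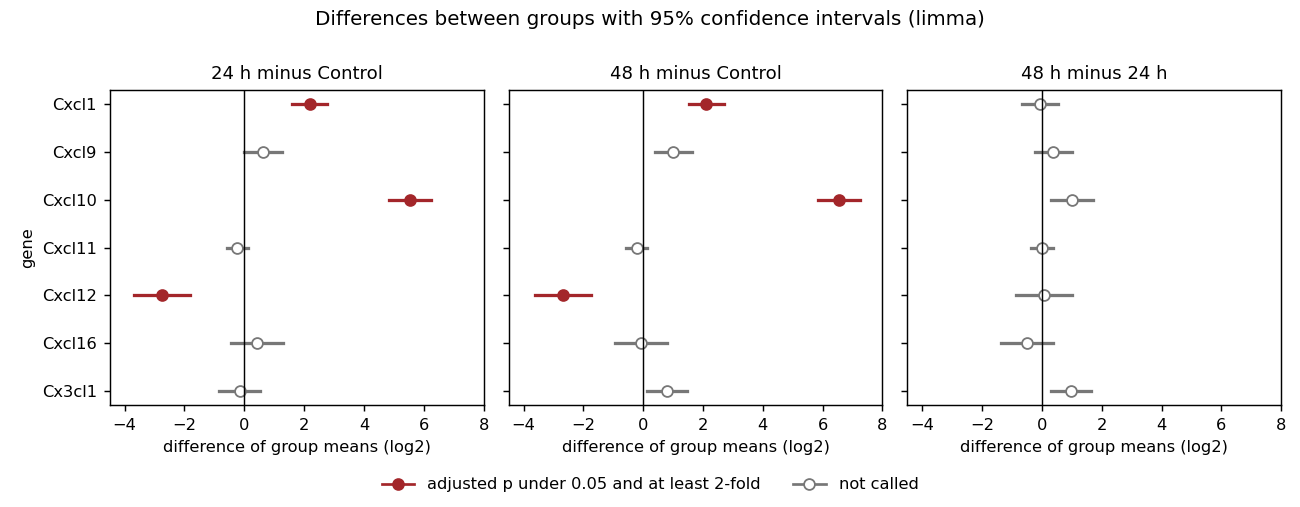
Differences of group means on the log2 scale (horizontal axis) for the 7 tested genes, with 95% confidence intervals from limma, in the 3 comparisons. Filled red points were called. The intervals of Cxcl1, Cxcl10 and Cxcl12 lie clear of 0 against Control at both times, and 0 genes were called between 24 h and 48 h.

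Within the first slide, which leaves 1 array at 24 h, the changes at 24 h were 2.40 for Cxcl1, 5.49 for Cxcl10 and -2.23 for Cxcl12. The adjusted p were 0.0258, 0.0131 and 0.027, and the changes at 48 h stayed as given. Leukocytes also make these chemokines. Of 13 leukocyte markers 8 were tested, and limma called 0 against Control at either time, by adjusted or unadjusted p. By adjusted p, 4.55% of all genes tested were called higher and 1.62% lower at 24 h, so 0 of 8 says little. Lyz2 and Spi1 were well above background on 0 of 6 arrays, and Ptprc, the pan-leukocyte marker CD45, on all 6. The summed relative signal of the 13 markers was 45.1 and 51.5 in the Control arrays, 35.8 and 44.2 at 24 h, and 29.8 and 40 at 48 h. Between 70.7% and 82.9% of each sum came from 1 probe of Itgam, which differed by -0.43 and -0.65, whereas its other probes differed by between -0.11 and 0.13. The other 12 markers, a split made after the values were seen, summed to 7.72 and 9.27 in the Control arrays, 9.76 and 10.9 at 24 h, and 8.75 and 9.7 at 48 h. Their sum was thus higher at 24 h than in the Control arrays and overlapped them at 48 h. Cd14 had adjusted p of 0.0102 and 0.0191 but changed by less than 2-fold, with 0.87 and 0.69, and Ptprc differed by 0.68 and 0.15 with adjusted p of 0.0872 and 0.685. The part of leukocyte transcripts in the changes of the chemokines was not tested.

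**Figure D4:**
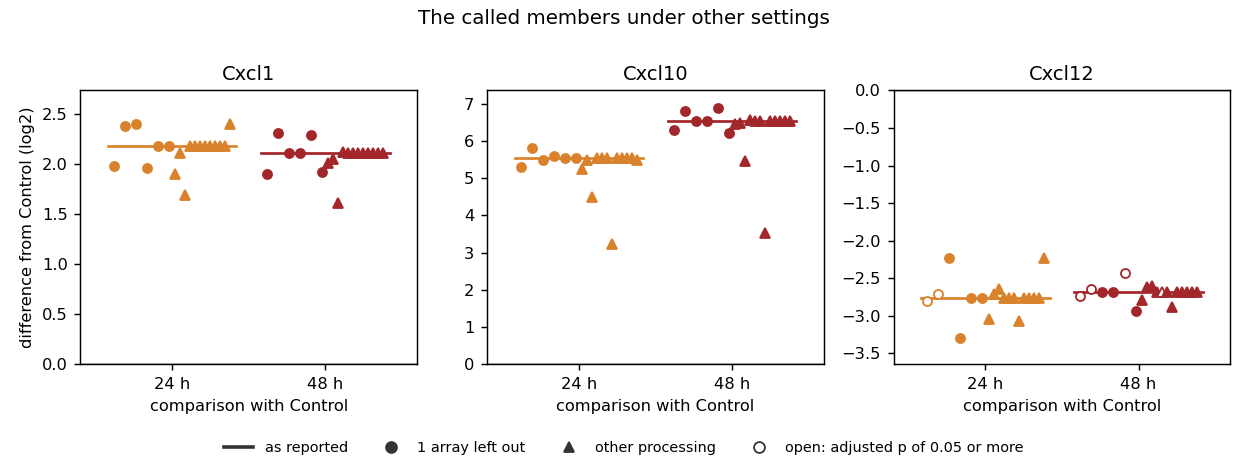
Change from Control on the log2 scale (vertical axis) of the 3 called genes at 24 h and 48 h, as reported (line), with each array left out (circles) and under other normalization, background, filter, probe or model choices (triangles). Open symbols had an adjusted p of 0.05 or more. The methods' t-test, which called none of these genes after adjustment, and the unadjusted threshold are not drawn. Cxcl1 and Cxcl10 were called under every setting drawn. Cxcl12 lost its call without either Control array, and at 48 h also without 48 h replicate 1 and with no filter on dim probes.

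The other genes of the pathway were a list of 40, of which 28 were tested. Of these, 11 were called higher and 0 lower at 24 h, with the same counts at 48 h, against 4.55% of all genes tested called higher and 1.62% lower at 24 h and 3.95% and 1.46% at 48 h. Of the 11, 3 passed the filter only through the stimulated arrays, Ppbp, Ackr3 and Zfp36. The median change of the 28 was 0.84 and 0.64, beside 0.04 and -0.04 over all genes tested. Among 6 other CXC chemokines, 5 were well above background on 0 arrays. The exception was Ppbp (Cxcl7), a platelet chemokine with the ELR motif, which read -4.87 and -6.56 in the Control arrays, not well above background, and -2.29 and -1.35 at 24 h and -1.66 and -0.43 at 48 h. Against the lowest signals well above background it was at least 8.78-fold higher at 24 h and at least 15-fold higher at 48 h. These bounds hold for the processed signal only, since normexp background correction gave smaller changes of 1.5 and 2.06 on the log2 scale. The adjusted p of 0.0262 and 0.0174 rest on Control readings that were not signal, in a gene that passed the filter through the stimulated arrays. The 24 h call was lost without Control replicate 2 (adjusted p = 0.0945) or either 24 h array (adjusted p = 0.072 and 0.106), and the 48 h call without Control replicate 2 (0.0663) or 48 h replicate 2 (0.0759). With no filter on dim probes neither was called (adjusted p = 0.0751 and 0.0657).

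Of the 7 chemokine receptors listed, 4 were tested, and 0 of these were called against Control at either time. Cxcr4, the receptor of Cxcl12, and Cxcr5 were well above background on 0 arrays. Cxcr6 was so on 1 array by its brighter probe and on 2 by the other, and was not tested. Cxcr1 was so on all 6, with -0.09 and -0.57 from Control. Cxcr2, the receptor of Cxcl1, differed by 0.87 at 24 h with an adjusted p of 0.0528, and by 0.23 at 48 h. Cxcr3, the receptor of Cxcl10, differed by 0.81 and -0.24, and Cx3cr1 by 0.15 and -0.74, with adjusted p between 0.176 and 0.786. Cxcr2 and Cxcr3 passed the filter only through the 24 h arrays, where they read highest, and Cx3cr1 only through the Control arrays. At 48 h Cxcr3 and Cx3cr1 were well above background on 0 arrays, so their differences there carry only bounds.

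Ackr3 (Cxcr7 in the files), an atypical receptor that binds and removes Cxcl12 and Cxcl11, was not well above background in the Control arrays, at -6.69 and -6.67. It read -1.78 and -2.01 at 24 h and -1.77 and -2.69 at 48 h. On the processed signal Ackr3 was at least 8.32-fold higher at 24 h and at least 6.6-fold higher at 48 h, and with normexp the changes were smaller, 1.52 and 1.35 on the log2 scale. It passed the filter only through the stimulated arrays, and its adjusted p, 0.00242 and 0.00211, rest on Control readings that were not signal. Its stimulated arrays were the high ones and those of Cxcl12 the low ones. The other atypical receptors were not called. Among 5 proteases that cut chemokines, Adam10 and Adam17, the sheddases of Cxcl16 and fractalkine, differed from Control by at most 0.6 on any of their probes, and 0 were called.

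Of 12 transcription factors that act on chemokine genes, 5 were called higher at both times, against 4.55% of all genes tested at 24 h and 3.95% at 48 h. The interferon-response factors moved most. Stat2 read -0.83 and -0.57 in the Control arrays, 1.93 and 2.21 at 24 h, and 2.71 and 2.98 at 48 h, a rise of 6.82-fold and 11.7-fold with adjusted p of 0.00235 and 0.00127. Irf9, its partner, rose by 6.62-fold and 6.9-fold, and Irf1 by 2.38-fold and 4.22-fold. The Irf1 call at 24 h was lost when any Control or 24 h array was left out, with adjusted p between 0.0952 and 0.121, with median centring (0.97), with no filter on dim probes (adjusted p = 0.0769) and with the slide as a block (0.0968). The 48 h call was lost without Control replicate 2, at 2.02 with an adjusted p of 0.0525, and a dimmer second probe of Irf1 was not called at either time.

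Fos, a subunit of AP-1, rose by 7.55-fold and 4.23-fold, whereas Jun did not pass the test, with 0.18 and -0.28. Stat3 rose by 2.54-fold and 2.06-fold on its brighter probe, and its other probe was called only at 24 h. The NF-kB subunits were not called. Nfkb2 and Relb missed only the 2-fold limit. They were higher by 0.96 and 0.99 at 24 h, with adjusted p of 0.00968 and 0.0121 in limma. At 48 h they were higher by 0.66 and 0.63, with adjusted p of 0.0254 and 0.0386. Nfkb1 and Rela differed by -0.10 and 0.28 at 24 h and by -0.15 and 0.07 at 48 h.

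Of 6 inhibitors, 4 were called higher at both times, against 4.55% of all genes tested at 24 h and 3.95% at 48 h. Socs3, which damps signaling through Stat3, rose by 13.3-fold and 7.5-fold, and Socs1, which damps interferon signaling, by 2.51-fold and 3.16-fold. Zfp36, which promotes decay of chemokine mRNAs, was at least 5.57-fold and at least 4.34-fold higher on the processed signal, from Control arrays that were not well above background. With normexp its changes were smaller than those bounds, 0.83 and 0.69 on the log2 scale, and were not called. Nfkbiz, an atypical member of the IkB family, rose by 2.84-fold and 2.08-fold, and Nfkbia, the classical feedback inhibitor of NF-kB, differed by -0.05 and -0.09. With single arrays left out, the calls of Stat3, Fos, Nfkbiz and Socs1 were lost in at least 1 case, with adjusted p up to 0.0672, 0.0559, 0.0687 and 0.0682 at 24 h and 0.114, 0.0978, 0.119 and 0.0513 at 48 h. The 48 h calls of Stat3 and Nfkbiz, both close to 2-fold, were lost in 12 and 13 of 21 settings, among them median centring (0.94 and 0.96), no filter on dim probes (adjusted p = 0.089 and 0.0929), and a slide block or a fit of only the groups compared (0.0525 and 0.0545). At 24 h Nfkbiz lost its call in 7 settings, with 0.98 under normexp, and Socs1 in 6.

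**Figure D5:**
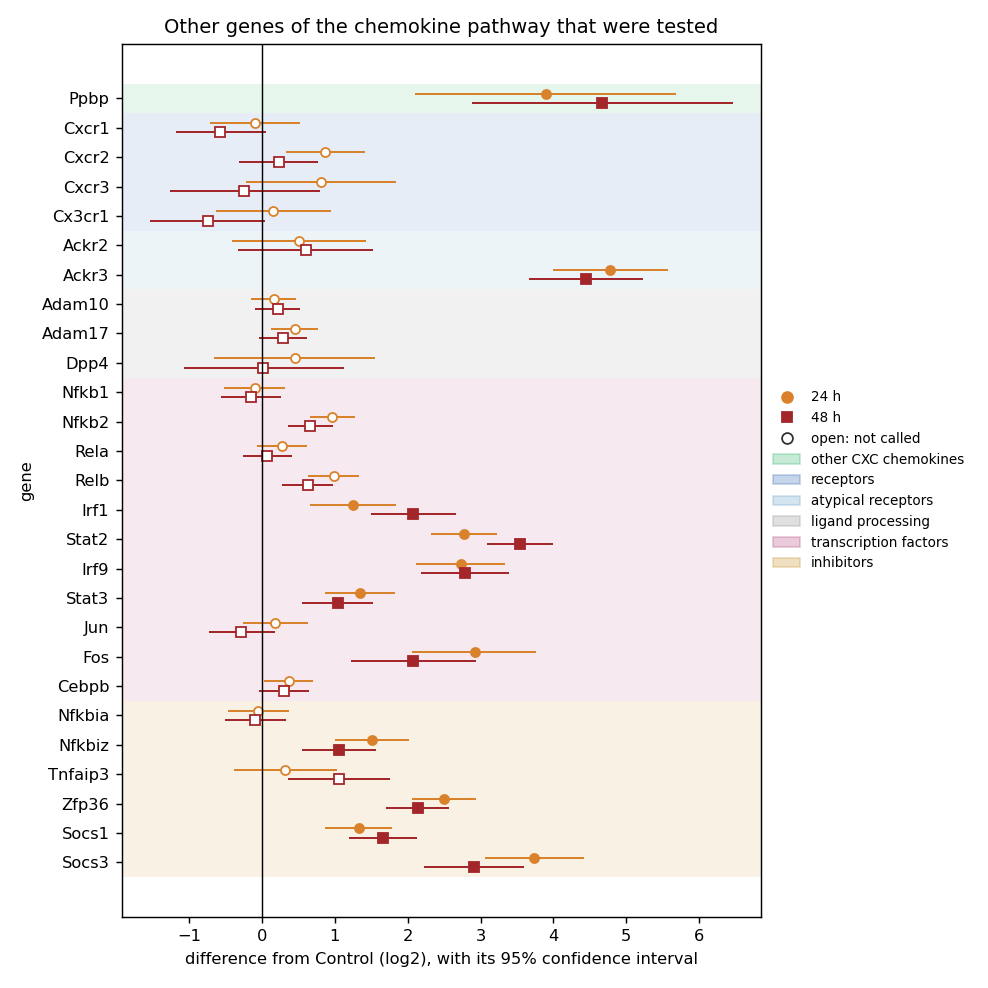
Change from Control on the log2 scale (horizontal axis) with its 95% confidence interval for the tested genes of the pathway list that are reported, at 24 h (circles) and 48 h (squares), shaded by list. Filled symbols were called. The changes of Ppbp, Ackr3 and Zfp36 rest on Control readings that were not well above background.

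The genes whose pattern over the 6 arrays lay nearest to each called member, by Euclidean distance of values set against the gene's own Control mean among 21321 genes well above background on all arrays, were different for each. For Cxcl10 they were Rtp4 (distance 0.662), Gbp2 (0.714) and the transcript ENSMUST00000037976 (0.808). Rtp4 and Gbp2, which are known interferon-inducible genes, changed by 5.55 and 5.43 at 24 h and by 6.37 and 6.89 at 48 h. For Cxcl12 they were Fbln5 (1.02), which encodes an elastic fiber protein, Plk2 (1.03) and Atoh8 (1.07), with changes from -3.23 to -2.34 at 24 h and from -3.14 to -2.53 at 48 h. For Cxcl1 the nearest were the probe A_55_P1960936 (0.326) and the entries LOC100503637 (0.356) and AK132033 (0.357), which have no symbol in the RefSeq table used here.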

How the data were processed

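RNA of N18-Fms cells was hybridized to 6 Agilent mouse arrays with 1 dye. The authors deposited 1 output file of Agilent Feature Extraction 11.0.1 (per the labels) for each array. Its background-subtracted and detrended spot intensity, deposited without normalization between arrays, was used, together with the mean spot intensity, the local background intensity and the flags of the software. A further table deposited by the authors holds log2 values of 44569 probes. Its normalization, scale and centring are not stated, the column medians lay between -0.0378 and 0.173, and it served as an alternative. The probe positions are those of build mm9 in the files, and exon or intron was not analysed here.

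Outlier spots were left out, repeated spots averaged, and log2 signals were shifted to the 75th percentile of their array. The brightest probe, by the mean of all arrays, stood for each of 36028 genes. Genes that both arrays of some group read well above background were tested with limma 3.58.1 in R 4.3.3 (lmFit and eBayes, 2-sided, all 6 arrays in 1 fit, Benjamini-Hochberg over 24648 genes), with 3 residual and 2.39 prior degrees of freedom. Confidence intervals are limma's and are not adjusted. The procedure was tested on simulated data. Where neither array of a group read a gene well above background, its fold is a bound against the lowest signal well above background on each array. Some spots without the flag read above that signal, so the bounds are approximate. With 2 arrays against 2, an exact permutation test cannot go below 0.333, and the number of arrays limits the precision.

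The members, the pathway list, the marker lists and the motifs were written from general knowledge with earlier results of these data known. All members were named, and of the pathway list those called and the receptors. Some listed genes are counted but not reported here by name. Of the marker lists, 5 epithelial markers were tested, with 0 calls at 24 h and 1 higher at 48 h (Krt8). Of 3 endothelial markers tested, 1 was called higher at both times. This was Cdh5, by 14.6-fold and 15.7-fold, with only 1 Control array well above background. Over all genes tested, 4.55% were called higher at 24 h and 3.95% at 48 h. Fibroblast and leukocyte markers are in the report. The alternatives were other scaling, background, filter, probe, prior and block choices, the authors' log2 values, the test named in the methods, an unadjusted threshold, and each array left out.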

Additional observations from a re-analysis of the deposited data

How the results depend on the processing

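The counts of called members, 3 at 24 h, 3 at 48 h and 0 between the times, ran from 2 to 3, 2 to 3 and 0 to 0 with 1 array left out. They became 0 and 0 against Control with the methods' t-test after adjustment, and 1 between the times by unadjusted p. Labels share replicate numbers, but same-numbered arrays deviated together only weakly (r = 0.13, 0.09 and 0.20 across genes, which are not independent), so they were not taken as pairs. Cxcl1 and Cxcl10 kept direction and call in 20 of 21 settings at both times, all but the adjusted t-test, and Cxcl12 in 18 at 24 h and 16 at 48 h. The replicate block gave 3, 4 and 0, the added gene being Cxcl9 at 48 h.

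Only differences that were not called changed sign. For Cx3cl1 at 24 h the difference (-0.44 to 0.12 with 1 array left out) was 0.04 without Control replicate 2 and 0.12 without 24 h replicate 2. For Cxcl16 at 48 h (-0.43 to 0.29) it was 0.02 with normexp, 0.29 without Control replicate 1 and 0.13 without 48 h replicate 1. Between the times, Cxcl1 was 0.11 with median centring, 0.14 without 24 h replicate 2 and 0.11 without 48 h replicate 1, Cxcl11 was -0.07 and -0.09 without these arrays, and Cxcl12 (-0.46 to 0.6) was -0.46 with the slide as a block or without 24 h replicate 1 and -0.18 without 48 h replicate 2. The cause was not tested.

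Median centring shifted the median of all genes by -0.29 at 24 h, -0.10 at 48 h and 0.18 between the times. It moved the share of calls that were higher from 73.8% to 45.4% at 24 h and from 73% to 61.7% at 48 h, and quantile normalization to 62.8% at 24 h. The 1520 genes called at 24 h became 866 with normexp, 908 without Control replicate 2, 873 without 24 h replicate 2 and 0 with the adjusted t-test. The 1332 called at 48 h became 871 with normexp, 809 with no filter, 849 without Control replicate 1 and 0 with that test. The 0 called between the times became 112 with normexp, 110 with an intensity trend, 5 with median centring, 5 with all arrays well above background, 11 without 48 h replicate 2, 560 by unadjusted p and 251 by the unadjusted t-test. Dim probes limit Cxcl2, Cxcl5, Cxcl9 and Cxcl14, for which changes could not be detected or only bounded.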
